A study of Mus musculus with 6 samples.

Results

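The genes of the cytosolic ribosomal proteins were described here in IgM-positive B cells of the bone marrow. They were taken by name from the deposited RPKM table: names of the form Rpl or Rps followed by a number and at most 1 letter, together with the stalk genes Rplp0, Rplp1 and Rplp2, with a mean of at least 1 RPKM over the 6 libraries. RPKM counts reads relative to the length of a transcript in kilobases and to the size of the library. Such a name was carried by 80 of the 22098 genes listed there, and 68 passed, 39 of the large and 29 of the small subunit. The lowest member that passed was Rps16 at a mean of 1.2 RPKM, and the highest that did not was Rpl23a at 0.9. The 12 that did not pass include Rpl10l, Rpl23a, Rpl24, Rpl27, Rpl35, Rpl36a, Rpl38, Rpl39l, Rpl3l, Rps23 and Rps29, and they are in none of the counts of tested members.

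The study compared wild-type C57BL/6 mice with mice of the same background that lack zinc finger 1 of Ikaros (the ZnF1 mutant) or zinc finger 4 (the ZnF4 mutant), to ask which RNAs depend on each finger. Ikaros is the lymphocyte transcription factor made from Ikzf1, and its N-terminal zinc fingers hold the DNA. IgM-positive B cells were sorted from the marrow at 6 weeks of age, polyadenylated RNA was sequenced, and each genotype had 2 libraries. The labels number these libraries as replicates and do not say that they came from separate animals. In each mutant the Y-linked gene Ddx3y was found only in replicate 2, so that pair did not come from the same animal. For wild type this is not known. The p-values therefore reflect only sample-to-sample spread, which may be technical in wild type. In bulk RNA, fewer cells of a type and less RNA per cell cannot be told apart.

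A ribosome holds a single copy of nearly every ribosomal protein, and the proteins of both subunits are needed together. Their genes are among the most strongly transcribed in growing cells, and most of their messenger RNAs begin with a stretch of pyrimidines, the terminal oligopyrimidine motif, through which mTOR signalling controls translation. In mammals each protein is mostly made from 1 intron-bearing gene, while the genome also carries many processed pseudogenes, copies of the spliced messenger RNA without introns that often keep nearly the same sequence.

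Because of these copies, the coding sequences of the members differ in how much of them belongs to that gene alone. Each coding sequence was read in the GENCODE M21 annotation of GRCm38 and divided into all its overlapping 50-base words. A word was counted as unique when no transcript of another gene or annotated pseudogene held it on either strand. Genes that overlap the member's own place in the genome were left aside. The word length was a choice of this work, since the read length is not given in the sources used here. The words from the middle of 6 coding sequences are shown because they span the range from unique to widely copied. Capitals mark bases covered by a 25-base word found in no other gene, and lower case marks bases that are not. Bases are numbered from the start codon, and the shown word lies at bases 361 to 410 of Rpl8 (chromosome 15), 340 to 389 of Rps3 (chromosome 7), 280 to 329 of Rpl13a (chromosome 7), 147 to 196 of Rplp1 (chromosome 9), 216 to 265 of Rpl21 (chromosome 5) and 415 to 464 of Rps2 (chromosome 17).
Rpl8: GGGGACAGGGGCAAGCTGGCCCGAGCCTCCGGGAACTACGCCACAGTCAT
Rps3: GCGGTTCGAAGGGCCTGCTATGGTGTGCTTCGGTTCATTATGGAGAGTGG
Rpl13a: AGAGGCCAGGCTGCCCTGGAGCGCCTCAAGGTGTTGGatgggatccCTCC
Rplp1: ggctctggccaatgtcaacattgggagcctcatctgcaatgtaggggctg
Rpl21: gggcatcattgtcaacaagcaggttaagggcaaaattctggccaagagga
Rps2: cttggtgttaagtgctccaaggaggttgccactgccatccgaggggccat
The words of Rpl8, Rps3 and Rpl13a were in 0 other genes. The word of Rplp1 was in 3 other genes, that of Rps2 in 10 and that of Rpl21 in 27, of which 2, 10 and 26 are annotated pseudogenes.

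A coding value was obtained for 67 of the 68 members. The exception was Rps27, matched to a non-coding entry. The median member had 12.3% unique coding words, and 22 of 67 had 0%. Rps3 reached 91.9% and Rpl8 91.3%. Over the whole transcript, untranslated parts included, Rpl7a shared a 50-base word with 120 pseudogenes, Rpl21 and Rpl29 with 81 each, and Rps2 with 71 (the pseudogene counts of Rpl7a, Rpl29 and Rps2 were singled out after they were seen). In 12 members at least 50% of the coding words were unique, a split chosen after the data were seen. They include Rpl4, Rpl8, Rpl13a, Rpl22 and Rpl32 of the large subunit and Rps3, Rps9, Rps15, Rps21 and Rps27l of the small.

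The members were listed at very different levels, with 1.2 RPKM as the lowest mean. Rpl8, which lies close to the peptidyl transferase centre, had a mean of 906.6 RPKM and Rps3, at the entry of the messenger RNA channel, 428.9. Rps9 was at 383.1, Rpl4, which lines the exit tunnel for the growing peptide, at 291.9, and Rps15, which was singled out after its values were seen, at 205.3. In all, 6 members were at or above 100 RPKM, these 5 among them, and the 6 held between 76.8% and 83.9% of the summed RPKM of the members in each library. In contrast, 47 of 68 members had a mean under 10 RPKM, and the member median of 5.68 was below the median of 12.2 over the 10322 tested genes. The other 886 tested genes with transcripts of at most 1000 bases had a median of 11.3. The lowest members were Rpl11, Rpl21 and Rpl37 of the large subunit (means of 1.23, 1.32 and 1.37 RPKM) and Rps16, Rps7 and Rps13 of the small (1.2, 1.23 and 1.32). The subunits did not separate by level, with medians of 5.67 RPKM for the large and 5.7 for the small.

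The level followed the uniqueness of the coding sequence. Across 67 members, Spearman's rho between the unique share and the mean log2 level was 0.71 (0.58 over 39 large and 0.84 over 28 small subunit genes). Genes are not independent replicates, and all of these values come from the same 6 libraries. With 25-base words rho was 0.71, with the whole transcript in place of the coding part it was 0.53, and with the number of pseudogenes that share a word of the whole transcript it was -0.47. The 12 members with at least 50% unique words started at 18.9 mean RPKM and had a median of 149. The other 56 ranged from 1.2 to 37.5, with a median of 4.59, and 47 of them were under 10. Rpl14, Rplp1 and Rps20 led these 56, at means of 37.5, 31 and 28.6 RPKM (Rpl14 and Rps20 were singled out after their values were seen). How the authors treated reads that match several places is not given in the sources used here, and its part in these levels was not tested.

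**Figure D1:**
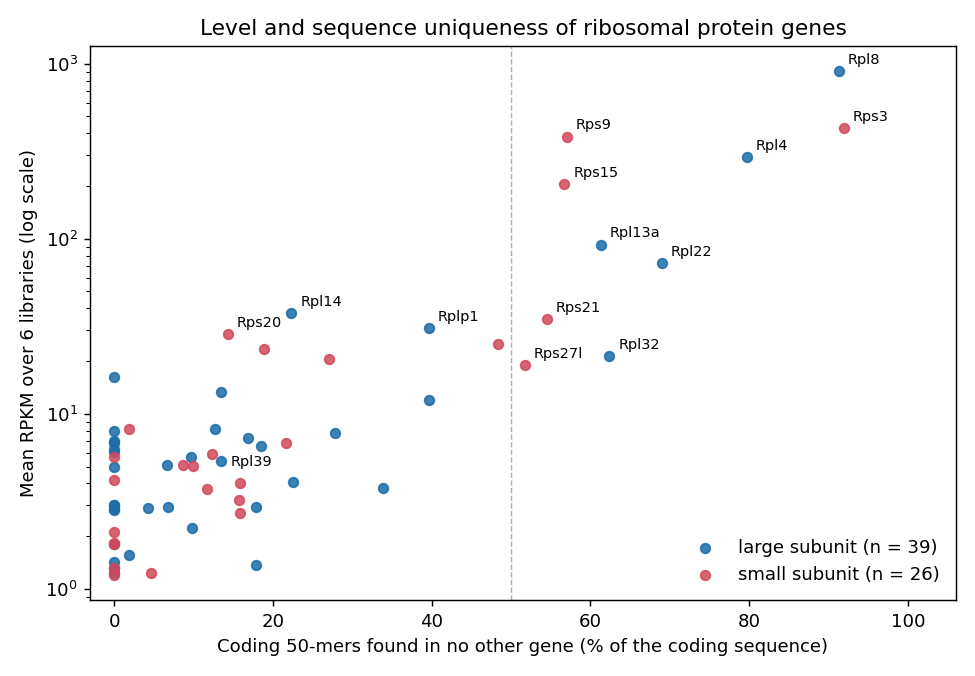
Mean RPKM over 6 libraries (log scale) against the share of coding 50-base words found in no other gene, for 39 large (blue) and 26 small (red) subunit genes; each point is a gene and the dashed line marks 50%. The 10 genes drawn to the right of the line lie between 18.9 and 906.6 RPKM, and to the left 46 of 55 genes are under 10.

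Ribosomal proteins under other names, which the name rule leaves out, spanned a similar range. Gnb2l1, which encodes the scaffold protein RACK1 on the head of the small subunit and has 98.6% unique coding words, was at 1012.1 and 840.5 RPKM in wild type, 1062.0 and 839.8 in the ZnF1 libraries, then 719.9 and 1050.1 in the ZnF4 libraries. Rpl7l1 (78.1% unique), which is counted with them by its name only, had a mean of 19.1. Rpl22l1 (17.4%), Fau (0%), Rpsa (1.2%) and Rpl36al (18.6%) had means of 3.02, 2.23, 1.63 and 1.53 RPKM. Fau encodes a fusion of a ribosomal protein with a ubiquitin-like protein.

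Transcription start sites were read from RefSeq on GRCm38.p6, where 50 of the 68 members had an entry. A run of at least 7 pyrimidines (C or T) touching the bases within 5 of the start was present in 25 of 50 members, or 50%, against 16.5% of the 7373 tested genes with an entry. The share was 51.7% of 29 large and 47.6% of 21 small subunit genes. A gene with several annotated starts counted, here and for the core words below, when any of them matched. Taken start by start, a run was at 41% of 61 starts of members and 14.1% of 32851 starts of all genes, tested or not. The sequences below, from 20 bases before to 10 bases after the start of 5 members, show such a run in capitals. They were chosen as members whose values are described below and that have one. A run counted in this way need not begin the messenger RNA, and that of Rpl4 lies wholly before the start. The run of Rpl15 is 17 bases long and continues past the bases shown.
Rps6 (chr4:86857358-86857387, minus strand): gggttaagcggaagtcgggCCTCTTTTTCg
Rpl4 (chr9:64173367-64173396, plus strand): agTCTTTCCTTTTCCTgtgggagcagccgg
Rps9 (chr7:3704021-3704050, plus strand): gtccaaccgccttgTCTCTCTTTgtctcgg
Rps18 (chr17:33955656-33955685, minus strand): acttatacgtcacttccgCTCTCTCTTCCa
Rpl15 (chr14:18270977-18271006, minus strand): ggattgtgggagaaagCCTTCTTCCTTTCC
Over the 250 bases before and 50 after the start, on both strands, the core word of Ikaros sites, TGGGAA, was found in 22% of the members and 26.3% of the tested genes. The core of ETS factor sites, CCGGAA, was in 56% against 34%, and the E-box CACGTG in 12% against 12.5%. Such matches describe the letters of the window and are not binding sites. Rpl8 had no entry.

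The libraries had the profile of B cells, and they differed in RNA of other cells and in sex. The summed RPKM of 8 B cell markers lay between 10325.3 and 14669.3. The sum of 11 granulocyte and monocyte markers was 478 and 748.1 in wild type, 1481.0 and 7910.4 in ZnF1 replicates 1 and 2, and 1844.0 and 2022.6 in the ZnF4 mutant. The 8 erythroid markers summed to 1049.7 in ZnF1 replicate 2 and to between 164.4 and 402.4 elsewhere. The 6 plasma cell markers summed to 604.4 in wild-type replicate 1 and to between 111 and 203.8 elsewhere. Igj made up most of the high sum, at 413.8 RPKM against 1.1 in wild-type replicate 2. Sdc1, also on this list, was at 5.3 and 3.3 RPKM in wild type and 0.6 and 0.4 in the ZnF1 libraries. In the ZnF4 libraries it was at 1.6 and 1.7. Sdc1 was called lower in ZnF1 than in wild-type cells (log2 fold change -2.24, adjusted p = 0.0347 by limma). Markers of T cells (13.8 to 21.2 over 5 genes) and of NK and plasmacytoid dendritic cells (28.4 to 83.9 over 5) were low, and no marker was at 0 in all libraries. Most of these sums was Lck (11.2 to 19.9) and Bst2 (24.5 to 75.3). Bst2 was called higher in ZnF1 than in ZnF4 cells (log2 difference 1.29, adjusted p = 0.0112 by limma). Cd8a was at 1.2 and 1.5 in the ZnF1 libraries and at 0.1 to 0.2 elsewhere. The Y-linked gene Ddx3y was found only in replicate 2 of each mutant (20.4 RPKM in ZnF1, 16.6 in ZnF4), and the other 4 libraries list it at 0. The table has no exon values, so Ikzf1 does not check the genotypes.

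The summed level of the large subunit genes was 1718.0 and 1655.5 RPKM in the wild-type pair, 1776.3 and 1509.9 in the ZnF1 libraries, then 1263.1 and 1795.4 in the ZnF4 libraries. The small subunit genes summed to 2554.2 and 2165.2 in wild type, 2654.2 and 2285.0 in the ZnF1 libraries, then 1726.8 and 2831.3 in the ZnF4 libraries. The genotypes overlapped in both sums, and ZnF4 replicate 1 was the lowest library and ZnF4 replicate 2 the highest. The ratio of the large to the small sum was 0.6726 and 0.7646 in wild type, 0.6692 and 0.6608 in the ZnF1 libraries, then 0.7315 and 0.6341 in the ZnF4 libraries. Both ZnF1 ratios were below both wild-type ratios, narrowly so for wild-type replicate 1, and the ZnF4 ratios overlapped wild type. The ratio was not tested. These sums mostly follow the 6 highest members. All members together made up between 0.370% and 0.554% of RPKM times length in a library.

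Over all members, the libraries of each mutant differed more from each other than the wild-type libraries did. Relative to the wild-type mean, the median member lay at 0.04 (log2) in replicate 1 of the ZnF1 mutant and 0.39 in replicate 2. In the ZnF4 mutant it lay at -0.25 in replicate 1 and 0.29 in replicate 2. In wild type these medians were 0.02 and -0.02, and over all tested genes they lay between -0.06 and 0.03. The other 886 tested genes with transcripts of at most 1000 bases lay at 0.03 and 0.003 in the ZnF1 libraries, then -0.07 and 0.145 in the ZnF4 libraries, so that in ZnF4 replicate 2 their median was near that of the large subunit genes. In the order of ZnF1 replicates 1 and 2 and ZnF4 replicates 1 and 2, the medians were 0.05, 0.38, -0.28 and 0.16 for the large and 0.04, 0.40, -0.19 and 0.34 for the small subunit genes. The large subunit median minus the small subunit median of the log2 levels themselves was 0.05 and 0.03 in wild type, 0.03 and -0.52 in the ZnF1 libraries, then 0.25 and -0.34 in the ZnF4 libraries. This difference of levels was below 0 in replicate 2 of each mutant and above 0 in the other 4 libraries. It sets medians of different genes against each other. In ZnF1 replicate 2 the subunits had shifted alike from wild type (0.38 and 0.40), so there it does not show a shift of 1 subunit against the other. Of the 68 members, 34 (50%) had their highest value in ZnF1 replicate 2 and 29 (42.6%) their lowest in ZnF4 replicate 1, where 18.5% and 22.6% of all tested genes did. The high libraries of both mutants are those with Ddx3y, and ZnF1 replicate 2 is the library with the most granulocyte, monocyte and erythroid RNA. The part of sex or of other cells in these shifts was not tested.

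The library shifts differed between the members with mostly unique words and the others. These sets also differed in level (median means of 149 and 4.59 RPKM), so uniqueness and level cannot be told apart here. In ZnF1 replicate 2 the 12 members with mostly unique words had a median deviation of 0.05, and the other 56 had 0.41. In ZnF4 replicate 1 the medians were -0.44 and -0.16. Between the ZnF1 libraries 14 of 68 members (20.6%) were over 2-fold apart, 13 higher in replicate 2 and 1 lower, against 4.54% of all tested genes. Between the ZnF4 libraries 10 of 68 (14.7%) were, all higher in replicate 2, against 0.765%. Between the wild-type libraries it was 0 of 68 against 1.18%. Among the other short transcripts, of at most 1000 bases, the shares were 14.4% in the ZnF1 mutant, 3.61% in the ZnF4 mutant and 5.3% in wild type. Across 67 members, the difference between the ZnF1 libraries had a Spearman rho of 0.02 with the unique share, and that between the ZnF4 libraries 0.46, so the ZnF1 difference did not grade with uniqueness.

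**Figure D2:**
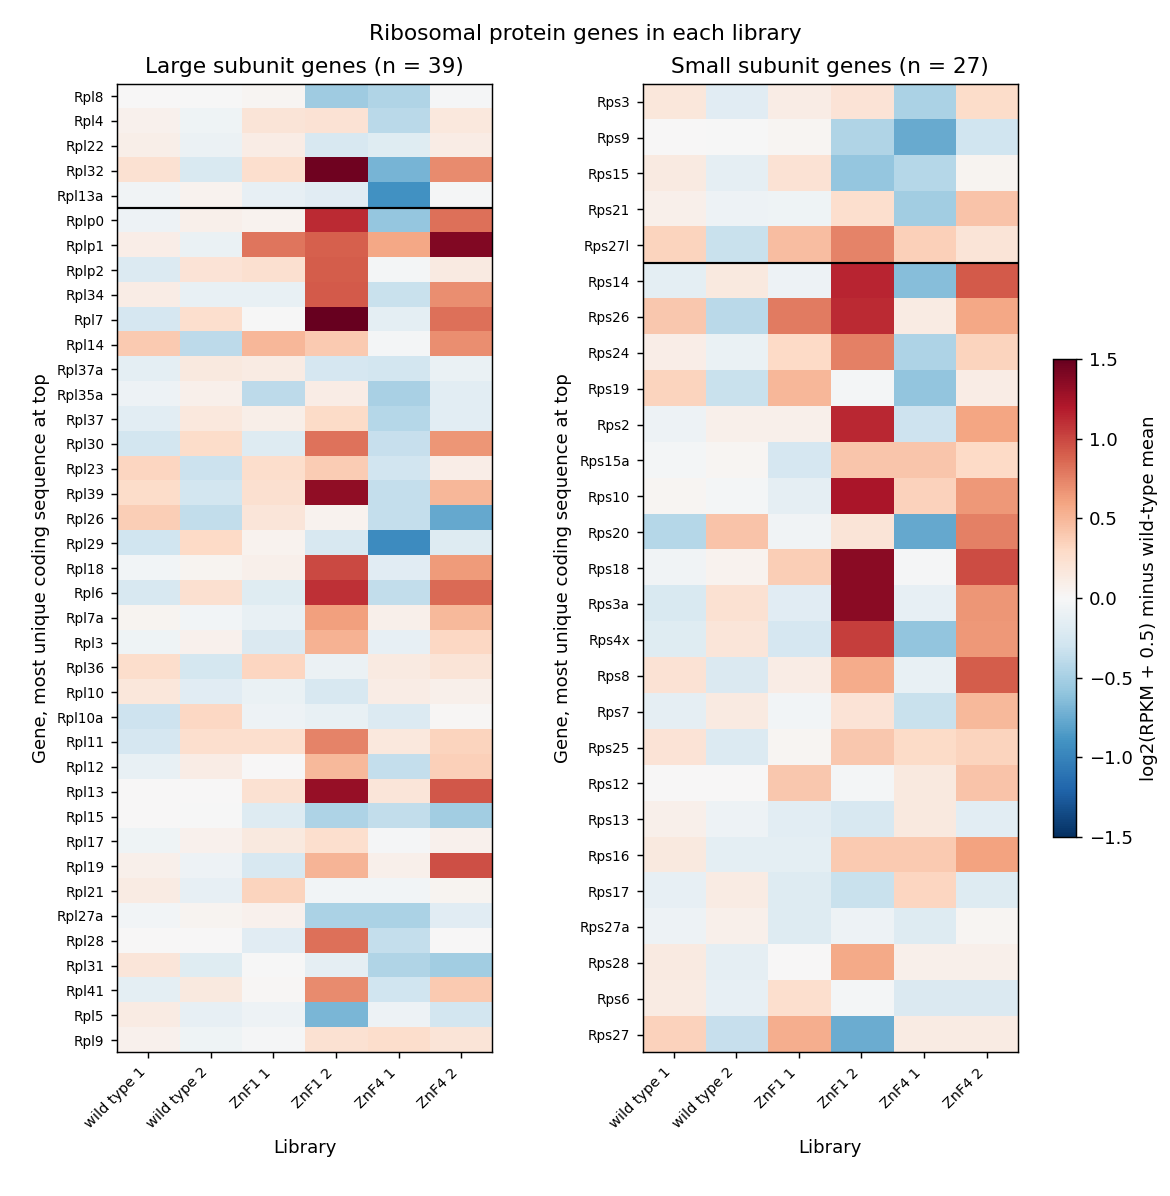
Difference of log2(RPKM + 0.5) from the wild-type mean (colour, red higher and blue lower) for 66 members (vertical axis) in each of the 6 libraries (horizontal axis), with the most unique coding sequence at the top of each panel and members above the black line at least 50% unique. ZnF1 replicate 2 is red for many members below the line and ZnF4 replicate 1 is mostly blue, with large and small subunit genes alike.

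In the ZnF1 mutant, 0 of 68 members passed the test against wild type (limma, adjusted p under 0.05), where 0.271% of the 10322 tested genes did. An unadjusted p under 0.05 was reached by 3 members (Rplp1, Rps26 and Rps27l) and by 11.9% of all genes. The median log2 fold change was 0.20 over the 39 large and 0.19 over the 29 small subunit genes, and -0.002 over all tested genes. It was above 0 for 50 of 68 members, and the range was from -0.38 to 0.95. Both ZnF1 libraries lay above both wild-type libraries for 12 members (17.6% of them; 21.1% of all genes) and below for 4 (20.3% of all genes). Without ZnF1 replicate 2 the medians were 0.05 and 0.04, and without ZnF1 replicate 1 they were 0.38 and 0.40. Over the 12 members with mostly unique words the median was 0.08.

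Rps26, a small subunit protein at the messenger RNA exit, had the largest log2 fold change in the ZnF1 mutant. Its levels were 19.1 and 10.7 RPKM in wild type, 24.9 and 31.6 in the ZnF1 libraries, then 15.7 and 21.7 in the ZnF4 libraries. Both ZnF1 libraries were above the other 4 (log2 fold change 0.95, SE 0.28, adjusted p = 0.243 by limma). Rps18, a protein of the head of the small subunit, was at 3.7 and 4.0 RPKM in wild type, 5.1 and 10.6 in the ZnF1 libraries, then 3.8 and 8.1 in the ZnF4 libraries. The replicate 2 libraries of both mutants were the high ones, and neither comparison passed (0.86, adjusted p = 0.462, and 0.48, adjusted p = 0.574, by limma). Rpl32, a large subunit protein, was at 18.2 and 13.1 RPKM in wild type, 18.5 and 43.2 in the ZnF1 libraries, then 9.3 and 25.6 in the ZnF4 libraries. Its log2 fold change of 0.85 in the ZnF1 mutant (SE 0.51, adjusted p = 0.580 by limma) was 0.25 without ZnF1 replicate 2. The unique share of the coding words was 27% for Rps26, 12.3% for Rps18 and 62.4% for Rpl32.

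Among members with a mean of at least 3 RPKM, the lowest fold changes in the ZnF1 mutant were those of Rpl5, Rpl15 and Rpl8. Rpl8 was at 1004.0 and 996.6 RPKM in wild type, 1022.4 and 693.6 in the ZnF1 libraries, then 733.3 and 989.5 in the ZnF4 libraries. In each mutant 1 library was close to wild type and the other below it, and neither comparison passed (log2 fold change -0.25 and -0.23, adjusted p = 0.786 and 0.702 by limma). Rpl15 was at 7.3 and 7.2 RPKM in wild type, 6.3 and 5.1 in the ZnF1 libraries, then 5.5 and 4.9 in the ZnF4 libraries, so that all 4 mutant libraries were below both wild-type libraries. Its log2 fold changes were -0.33 (SE 0.16, adjusted p = 0.5 by limma) and -0.45 (SE 0.16, adjusted p = 0.218). The mutants share their wild-type controls, so these values are not independent. Of the coding words of Rpl15 0% were unique, and 23 pseudogenes share a 50-base word with its transcript.

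In the ZnF4 mutant, 0 of 68 members passed against wild type (limma), where 3.2% of all tested genes did. An unadjusted p under 0.05 was reached by 3 members (Rplp1, Rpl15 and Rpl31) and by 17.4% of all genes. The median log2 fold change was 0.02 over the large and 0.07 over the small subunit genes and -0.02 over all tested genes, with 41 of 68 above 0 and a range from -0.57 to 0.99. Both ZnF4 libraries lay above both wild-type libraries for 9 members (23.1% of all genes) and below for 7 (27.2% of all genes). Leaving out ZnF4 replicate 1 gave medians of 0.16 and 0.34, and leaving out ZnF4 replicate 2 gave -0.28 and -0.19. Leaving out wild-type replicate 2 gave -0.058 and -0.004, and leaving out wild-type replicate 1 gave -0.003 and 0.07, so the direction of neither median held.

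Rplp1, an acidic protein of the stalk that recruits elongation factors to the ribosome, had the smallest adjusted p of the members against wild type in each mutant. Its levels were 20.3 and 17.6 RPKM in wild type, 33.4 and 35.5 in the ZnF1 libraries, then 28.6 and 50.4 in the ZnF4 libraries. All 4 mutant libraries were above both wild-type libraries, and the mutants overlapped. Neither comparison passed, with log2 fold changes of 0.85 (SE 0.24, adjusted p = 0.240 by limma) for ZnF1 and 0.99 (SE 0.24, adjusted p = 0.0881) for ZnF4. Over all alternatives tried the log2 fold changes lay between 0.75 and 0.95 and between 0.58 and 1.39, with smallest adjusted p-values of 0.173 and 0.0664. Of its coding words 39.6% were unique. Its partner Rplp2 shared this order only in the ZnF1 mutant. Rplp2 was at 2.6 and 3.6 RPKM in wild type, 3.7 and 6.2 in the ZnF1 libraries, then 3.0 and 3.4 in the ZnF4 libraries. Neither comparison of Rplp2 passed (log2 fold change 0.57, adjusted p = 0.465, and 0.05, adjusted p = 0.946, by limma). Rplp0, the base of the stalk, was at 8.7 and 9.8 in wild type, 9.6 and 20.6 in the ZnF1 libraries, then 6.0 and 16.8 in the ZnF4 libraries, with 1 high library in each mutant.

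Rps10, a protein of the small subunit head, was at 2.3 and 2.2 RPKM in wild type, 2.0 and 5.9 in the ZnF1 libraries, then 3.0 and 3.8 in the ZnF4 libraries. Its log2 fold change in the ZnF4 mutant was 0.50 (SE 0.40, adjusted p = 0.571 by limma). Without ZnF1 replicate 1 it was the only member called in any comparison against wild type under the alternatives tried (1.22 in the ZnF1 mutant, adjusted p = 0.026 by limma). That value sets the lone ZnF1 replicate 2 at 5.9 RPKM against wild type and leaves out the ZnF1 library at 2.0, below both wild-type values; the fit then assumes that the lone library varies like the other groups. Among members with a mean of at least 3 RPKM, the lowest ZnF4 fold changes were those of Rpl26 (-0.56), Rps9 (-0.53) and Rpl31 (-0.48), with adjusted p-values of 0.324, 0.289 and 0.228 by limma. Each moved with the libraries in the fit. Without wild-type replicate 1 or 2 the fold change of Rpl26 was -0.184 or -0.933 and that of Rpl31 -0.296 or -0.670, and without ZnF4 replicate 1 or 2 that of Rps9 was -0.298 or -0.756. Rps9 was at 447.2 and 444.1 RPKM in wild type, 456.5 and 325.1 in the ZnF1 libraries, then 263.6 and 362.3 in the ZnF4 libraries. Both ZnF4 libraries were below wild type, and they differed from each other by more than the wild-type libraries did. Rpl31, at the exit of the peptide tunnel, was at 6.5 and 4.9 in wild type, 5.6 and 5.1 in the ZnF1 libraries, then 4.0 and 3.8 in the ZnF4 libraries. The unique share of the coding words was 12.7% for Rpl26, 57% for Rps9 and 0% for Rpl31.

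**Figure D3:**
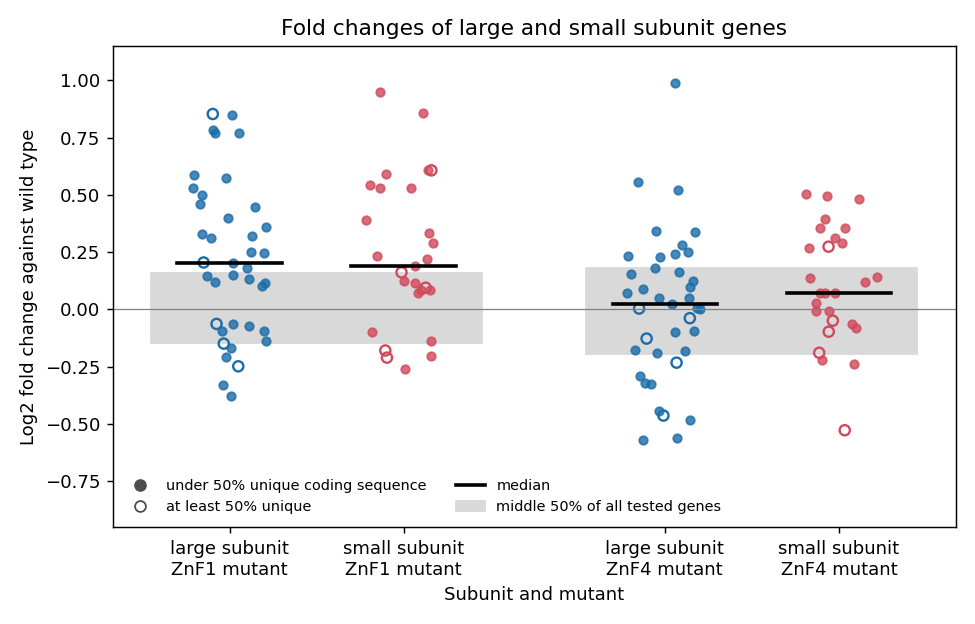
Log2 fold changes against wild type (vertical axis) of large (blue) and small (red) subunit genes in each mutant, each point 1 of 66 genes, with the median of all 68 members as a black bar by subunit, open points for members at least 50% unique and a grey band for the middle 50% of all tested genes. The medians are 0.20 and 0.19 for ZnF1 and 0.02 and 0.07 for ZnF4, and 0 members passed in either.

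Between the mutants directly, 0 of 68 members passed (limma), where 4.78% of all tested genes did, and 2 members against 20% of all genes had an unadjusted p under 0.05. The medians of ZnF1 minus ZnF4 were 0.21 over the large and 0.14 over the small subunit genes and 0.03 over all tested genes. Both ZnF1 libraries were above both ZnF4 libraries for 11 members (25.8% of all genes) and below for 1, Rpl10 (21% of all genes). Rpl26 had the smallest p of the members, with levels of 11.6 and 6.7 RPKM in wild type, 10.1 and 9.2 in the ZnF1 libraries, then 6.8 and 5.0 in the ZnF4 libraries. The mutants did not overlap (log2 difference 0.68, SE 0.26, adjusted p = 0.199 by limma). Without ZnF4 replicate 1 the medians were -0.08 and -0.12, and without ZnF4 replicate 2 they were 0.47 and 0.42. Without ZnF1 replicate 2 they were 0.10 and -0.06.

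The members with mostly unique coding words can be followed gene by gene. Rps3 was at 467.8 and 369.9 RPKM in wild type, 450.8 and 480.8 in the ZnF1 libraries, then 299.3 and 505.1 in the ZnF4 libraries. The ZnF4 libraries were the lowest and the highest of the 6, and the log2 fold changes were 0.16 and -0.10 (SE 0.26). Rpl4 was at 297.0 and 271.0 in wild type, 323.3 and 330.8 in the ZnF1 libraries, then 213.4 and 316.2 in the ZnF4 libraries. Both ZnF1 libraries of Rpl4 were above the other 4, and the difference did not pass (log2 fold change 0.20, SE 0.20, adjusted p = 0.770 by limma). Rpl13a was at 100.4 and 108.7 in wild type, 95.5 and 92.8 in the ZnF1 libraries, then 55.5 and 103.0 in the ZnF4 libraries. ZnF4 replicate 1 was the lowest library for 6 of the 10 genes plotted by library and ZnF1 replicate 2 for 3.

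**Figure D4:**
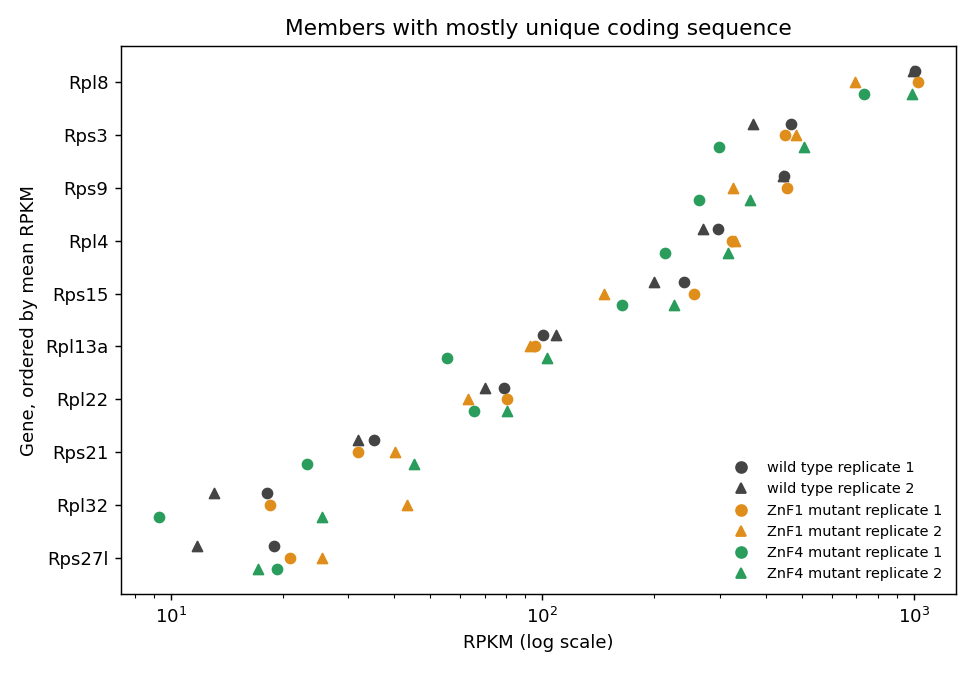
RPKM (horizontal log axis) of 10 members with at least 50% unique coding words, ordered by mean (vertical axis), in each library; colours are genotypes and shapes are replicates. Both ZnF1 libraries lie above both wild-type libraries for Rpl4, Rpl32 and Rps27l and below them for Rpl13a. Both ZnF4 libraries lie below wild type for Rpl8 and Rps9. Against wild type, each such order held for 20.3% to 27.2% of all tested genes. ZnF4 replicate 1 (green circle) is the lowest point for 6 of 10.

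Members with a role outside the core of the ribosome were also not called. Rpl5 and Rpl11 join the 5S ribosomal RNA and, when free of ribosomes, bind the p53 inhibitor Mdm2. Rpl5 was at 9.8 and 8.2 RPKM in wild type, 8.5 and 5.4 in the ZnF1 libraries, then 8.5 and 7.3 in the ZnF4 libraries (log2 fold changes -0.38 and -0.18). Rpl11 was between 0.7 and 1.9 in all 6 libraries, where steps of 0.1 RPKM are coarse. Rps6, the substrate of the S6 kinases downstream of mTOR, was at 4.7 and 3.9 in wild type, 5.2 and 4.2 in the ZnF1 libraries, then 3.6 in both ZnF4 libraries (0.11 and -0.22). Rps19, mutated in the inherited anaemia of Diamond and Blackfan, was at 28.6 and 17.8 in wild type, 32.1 and 22.1 in the ZnF1 libraries, then 14.8 and 24.5 in the ZnF4 libraries, with all genotypes overlapping. Rps27a, made as a fusion with ubiquitin, stayed between 1.9 and 2.4. Of the coding words 18.9% were unique in Rps19 and 0% in Rpl5, Rpl11, Rps6 and Rps27a.

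Among paralogs, Rps27l, a p53 target, was at 19.0 and 11.8 RPKM in wild type, 20.9 and 25.5 in the ZnF1 libraries, then 19.3 and 17.2 in the ZnF4 libraries. Both ZnF1 libraries were above the other 4 (log2 fold change 0.61, SE 0.22, adjusted p = 0.348 by limma). Its partner Rps27 lay between 1.1 and 3.4. Rpl22, which developing lymphocytes are known to need, was at 78.8 and 70.1 in wild type, 63.0 to 80.3 in the ZnF1 mutant and 65.4 to 80.1 in the ZnF4 mutant. Its log2 fold changes of -0.06 and -0.04 had an SE of 0.17. Rpl3 was between 2.2 and 4.0. Rpl3l, known from muscle, and Rpl10l and Rpl39l, known from testis, had means under 1 RPKM. Of the X-linked genes, Rpl36a was also under 1, Rpl10 was between 5.3 and 7.2, and Rpl39 and Rps4x were highest in ZnF1 replicate 2 at 10.7 and 9.1, with 3.0 to 5.8 and 2.6 to 6.8 in the other libraries.

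The genes of the surrounding pathway are read against the shares over all tested genes, which were 0.271%, 3.2% and 4.78% called and 11.9%, 17.4% and 20% at an unadjusted p under 0.05 for the ZnF1, the ZnF4 and the direct comparison. Nothing particular to the lists is read from their counts, which are small. Of 12 tested genes of RNA polymerase I and its factors, 1 fell in the ZnF1 mutant and 0 changed in the ZnF4 mutant (limma; 1 and 2 at an unadjusted p under 0.05). The gene that fell was Znrd1, a subunit of RNA polymerase I, at 45.7 and 44.2 RPKM in wild type, 22.5 and 16.5 in the ZnF1 libraries, then 34.8 and 39.5 in the ZnF4 libraries (log2 fold change -1.20, SE 0.16, adjusted p = 0.0455 by limma). The direct comparison called it lower in ZnF1 than in ZnF4 cells (-0.93, adjusted p = 0.024; 9 of 16 alternatives). The call against wild type held in 5 of 16 alternatives, with adjusted p from 0.00268 to 0.341 and a log2 fold change from -1.42 to -0.98. Of 21 tested regulators of ribosomal protein synthesis 0 changed against wild type in either mutant (limma; 0 and 3 at an unadjusted p under 0.05), and Eif4ebp1, an inhibitor of cap-dependent translation under mTOR, was called higher in ZnF1 than in ZnF4 cells (0.66, adjusted p = 0.0336; called in 7 of 16 alternatives). Its levels were 13.2 and 15.4 RPKM in wild type, 17.6 and 16.7 in the ZnF1 libraries, then 10.6 and 10.7 in the ZnF4 libraries. None of 33 assembly and nucleolar genes, 32 initiation factors, 8 elongation factors and 7 ribosomal proteins under other names was called in any comparison by limma, with 0 to 4 of each list at an unadjusted p under 0.05. The list medians against wild type were 0.12 and -0.001 for assembly, 0.01 and -0.10 for initiation, 0.14 and -0.15 for elongation and 0.11 and -0.09 for the ribosomal proteins under other names, in the ZnF1 and the ZnF4 mutant.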

How the data were processed

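RNA was measured in 6 libraries, 2 per genotype. The authors deposited RPKM values of 26531 transcripts, rounded to 0.1. TopHat, bedtools and the mm9 build are named in the submitters' processing notes; versions, read length, strand, depth and the treatment of multi-mapped reads are not given in the sources used here. Without counts, no counting interval is given.

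The transcript with the highest mean stood for its gene name. The 10322 names with a mean of at least 1 RPKM were tested on log2(RPKM + 0.5), so fold changes of low genes are understated, with limma 3.58.1 (trend, all 6 libraries, 3 residual degrees of freedom) in R 4.3.3. The test is two-sided, Benjamini-Hochberg adjusted over all tested genes and called under 0.05. The fit was tested on simulated data. The members, lists and comparisons were chosen with earlier results of these data known.

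Some items are not reported here. Named members were the 3 highest and 3 lowest per subunit, the 3 largest rises and falls per mutant with a mean of at least 3 RPKM, and a set fixed by role, and from each pathway list up to 3 called genes per mutant. Coding sequences came from GENCODE M21 (GRCm38) and start sites from RefSeq (GRCm38.p6). Both were matched by name or accession, and no coordinate was carried between builds. The uniqueness measure and its split at 50% were added after the data were seen. Alternatives were other pseudocounts, filters, transcript choice, scalings, variance trend, samples in the fit, the replicate number as a term and each library left out.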

Additional observations from a re-analysis of the deposited data

How the results depend on the processing

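Under the 16 alternatives of processing and samples, 0 members were called in the ZnF4 and in the direct comparison, and between 0 and 1 in the ZnF1 comparison, where Rps10 passed without ZnF1 replicate 1. The number of all genes called was less stable. Against 28 in the ZnF1 mutant it was 0 by limma without a filter on low values (1596 at an unadjusted p under 0.05), 13 with quantile normalization and 0 with only the genotypes compared in the fit (1053 at an unadjusted p under 0.05). Against 330 in the ZnF4 mutant these counts were 189 without a filter, 212 with a mean of at least 5 RPKM and 594 with only the genotypes compared. Against 493 in the direct comparison they were 309 without a filter and 249 with only the genotypes compared. Leaving out a library gave 0 to 512, 0 to 591 and 0 to 814 genes. It was 0 by limma without either wild-type or either ZnF4 library in the ZnF1 comparison, without either ZnF4 library in the ZnF4 comparison and without ZnF4 replicate 1 in the direct one, with 609 to 1689 genes at an unadjusted p under 0.05. Leaving out each library gave large subunit medians of 0.053 to 0.379, -0.285 to 0.156 and -0.082 to 0.473 for the ZnF1, ZnF4 and direct comparisons. Small subunit medians were 0.04 to 0.40, -0.19 to 0.34 and -0.12 to 0.42. With only the members at least 50% unique, the large subunit median in the ZnF1 mutant was -0.063. The cause of these changes was not tested. Leaving out a library leaves fewer samples, and the number of genes called rose in some of these fits and fell in others.

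With the replicate number as a block, 27, 327 and 529 genes were called, and 0 members by limma in each comparison. The differences between replicates correlated across genes with 0.28, -0.03 and 0.21 between pairs of genotypes. Since not every pair was above 0.1, the numbers were not taken to pair the samples, although replicate 2 of both mutants are the libraries with Ddx3y. The steps of 0.1 RPKM and the unknown depth limit what can be seen in the 47 members under 10 RPKM, and 2 libraries per genotype limit all comparisons.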

Other observations

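Some annotated copies have entries of their own in the deposited table. Rplp2-ps1 was at 91.8 and 92.2 RPKM in wild type, 113.8 and 77.4 in the ZnF1 libraries, then 82.7 and 64.5 in the ZnF4 libraries, while the intron-bearing Rplp2 had a mean of 3.75. In both mutants replicate 2 was the lower library for Rplp2-ps1 and the higher for Rplp2. Rps19-ps3 and Rpl34-ps1 had means of 1.37 and 0.52.

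Other translation genes also differed in the unique share of their coding sequence and in level. Eef1g, a subunit of the elongation factor that recharges eEF1A, had 9.98% unique coding words and a mean of 1.42 RPKM, with 3.1 in ZnF1 replicate 2 and 0.9 to 1.3 elsewhere. Eif1, which selects the start codon, had 5.52% and a mean of 10.4. Eef1a1, which delivers aminoacyl-tRNA, had 27.4% and 80 RPKM, and Eef2, which moves the ribosome along the messenger RNA, had 90.5% and 485.3. These 4 were singled out after their values were seen.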
